A study of Mus musculus with 8 samples.

Results

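The genes described here drive the cell division cycle, from the copying of DNA to the separation of chromosomes, and were measured in regulatory T cells (Tregs) of bone marrow chimeras. They are 45 genes listed by name: 11 of DNA replication, 21 of mitosis, 9 cyclins, kinases and inhibitors of the G1 phase, and 4 transcription factors. A gene was measured where a probe set carried its symbol alone, which held for 43 of the 45 among 19937 genes in all, and the probe set with the highest mean was kept. Ccnb1 and Cdkn1a had no such probe set and were not analysed here.

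The study set Tregs of IIKO chimeras against those of WT chimeras, with 4 biological replicates and 4 Affymetrix arrays each. In both, the hosts were CD3ε-/- mice, which form no T cells of their own, lethally irradiated and given marrow from IIKO donors (IIKO-CD3KO chimeras) or WT donors (WT-CD3KO chimeras); no other allele or agent is named. Per the labels, the strain was C57BL/6 and the age 6 to 8 weeks, and CD4+ TCRβ+ CD25+ cells were sorted from peripheral lymph nodes and spleen 28 days after reconstitution, with 100 ng of total RNA labelled per array. The labels describe IIKO-CD3KO Tregs as lacking contact of the TCR with MHC class II in the periphery; they do not say which class II gene is lost or how many mice a sample pools, and the sort used CD25 and no Foxp3 reporter.

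A resting T cell does not copy its DNA. To divide, it raises D-type cyclins, which act with Cdk4 and Cdk6 to release E2F transcription factors, and E2F then turns on cyclin E and the genes of the replication machinery. Genes of mitosis follow later, under a repressor and activator complex that reads the cell cycle homology region (CHR) of their promoters. Peripheral Tregs are known to divide more than other resting CD4+ T cells, and signals from the TCR and from IL-2 sustain that division. Because these were bulk samples, fewer cycling cells and less RNA per cycling cell cannot be told apart.

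The sorted cells carried the markers of their label. The level of Foxp3, which marks the Treg lineage, was 10.68 ± 0.12 in IIKO and 10.63 ± 0.04 in WT chimeras (log2, SD, n = 4 arrays each). Il2ra, which encodes the CD25 used for the sort, was at 12.18 ± 0.08 in IIKO and 12.01 ± 0.04 in WT chimeras (limma adjusted p = 0.211). Averaged over 12 T cell and Treg markers, the arrays lay between 11.71 and 11.79 in IIKO and between 11.70 and 11.77 in WT chimeras. Means of the marker lists of B, myeloid, NK and CD8, erythroid and thymocyte cells lay between 5.99 and 7.42 in IIKO and between 6.07 and 7.41 in WT chimeras. Single markers read higher. The 2 brightest of each list, in that order, were Xbp1 (8.33) and Cd79b (7.59), Cd68 (7.92) and S100a9 (6.59), Gzma (8.94) and Prf1 (7.87), Tfrc (9.79) and Alas2 (7.31), and Tox (10.87) and Cd24a (10.12). Gzma differed by -0.78 (log2, IIKO minus WT; limma adjusted p = 0.218). Over all genes, the median level was 7.10, and the median difference of IIKO minus WT was -0.038. Leaving out the genes of chromosomes 7 and 17 brought the number of genes past the threshold from 57 to 5.

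Cell cycle transcripts mostly read above the median gene, and none of their differences passed the test. The mean level lay above that of the median gene for 42 of the 43. It also did for 2 of 11 B cell, 1 of 14 myeloid, 4 of 10 NK and CD8, 3 of 6 erythroid and 4 of 9 thymocyte markers. Such a level alone therefore does not show that a gene was detected. Of the 43 genes, 0 passed limma at a Benjamini-Hochberg adjusted p of 0.05, where 0.286% of all genes did, and the lowest adjusted p was 0.161, for Cdk6. At an unadjusted p under 0.05 there were 7 of the 43, 3 higher and 4 lower in IIKO chimeras, which is 16.3% against 17.3% of all genes. The values of IIKO and WT arrays did not overlap for 2 genes, Cdk6 above and Birc5 below, against 10.5% of all genes. The median difference was -0.015 on the log2 scale, with 18 genes positive and 25 negative. The split of signs moved with the processing: 25 were positive with each array centred on its median, 13 after a further quantile normalization, and 26 without WT array 1.

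The confidence intervals limited the size of the difference for each gene taken singly, and not for all 43 at once. The single differences ran from -0.34 for Ccne1 to 0.24 for Ndc80 (log2, IIKO minus WT). Over the 43 genes, the 95% confidence intervals reached no lower than -0.60 and no higher than 0.44. A difference of more than 1.51-fold therefore lay outside the interval of each measured gene. For Mki67, which encodes the proliferation antigen Ki-67, the interval was -0.13 to 0.18 around a difference of 0.02. Its arrays read 10.37, 10.24, 10.25 and 10.33 in IIKO chimeras and 10.38, 10.13, 10.35 and 10.23 in WT chimeras. The IIKO arrays lay within the WT range for this gene.

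**Figure D1:**
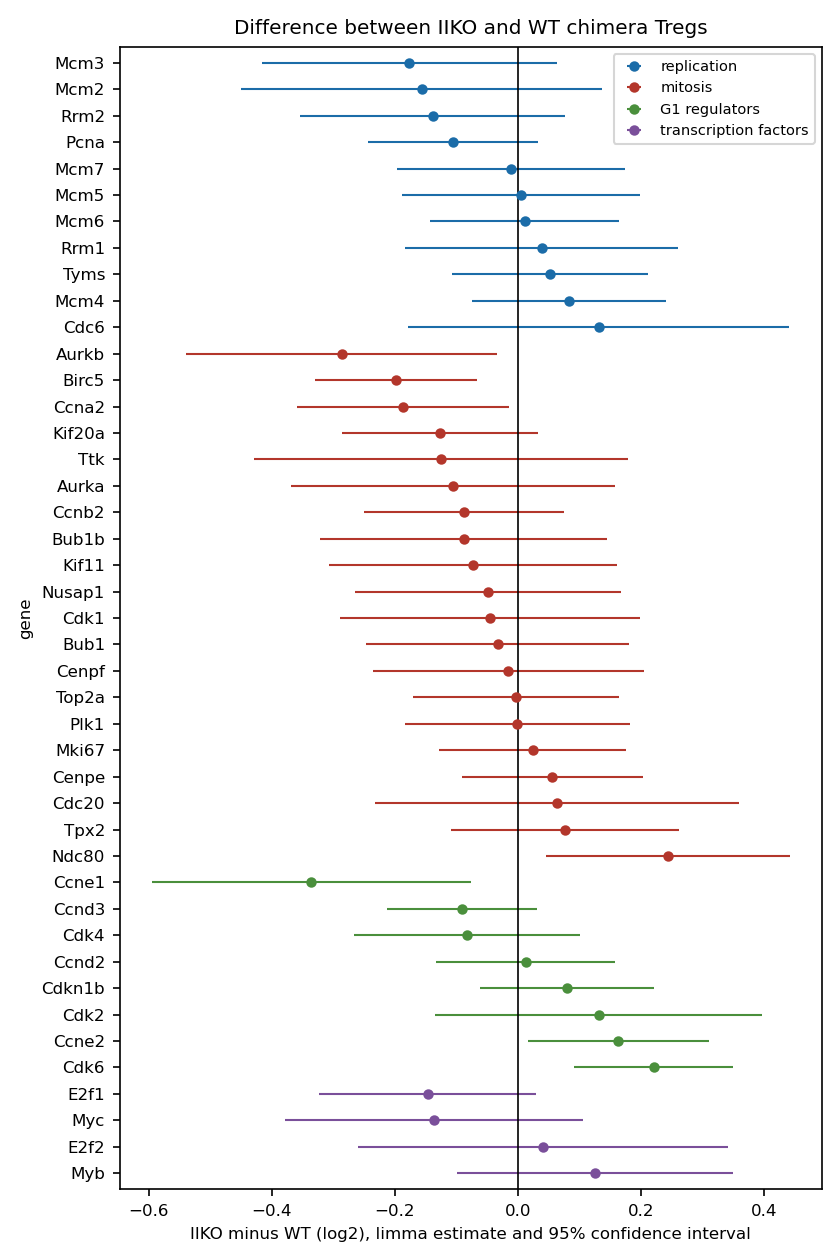
Difference of IIKO minus WT chimera Tregs on the log2 scale (horizontal axis) for each of 43 cell cycle genes (vertical axis), as points with 95% confidence intervals from limma, coloured by role. The points lie between -0.34 and 0.24, and no interval extends beyond -0.60 or 0.44.

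What set the groups apart to the eye was the spread between arrays. The SD over 4 arrays was smaller in IIKO than in WT chimeras for 35 of the 43 genes, against 49.8% of all genes. The median SD of the 43 genes was 0.087 in IIKO and 0.166 in WT chimeras (log2). Over all genes, both groups had a median SD of 0.098. This contrast was noticed in the data and is given without a test. WT array 1 was the highest WT array for 27 of the 43 genes, so the genes are not separate observations of the spread. Between 32 and 37 of the 43 genes had the larger SD in WT chimeras when any 1 array was left out, and 36 did after a further quantile normalization.

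**Figure D2:**
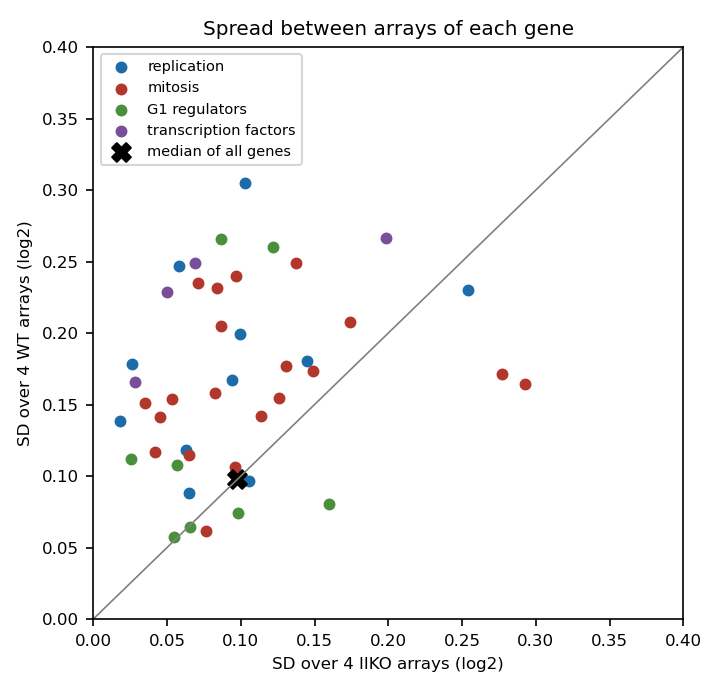
SD over the 4 IIKO arrays (horizontal axis) and over the 4 WT arrays (vertical axis), in log2 units, with a point for each of 43 cell cycle genes; the cross is the median of all 19937 genes and the line marks equal SD. Most points, 35 of 43, lie above the line, while the cross lies on it at 0.098.

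Among the replication genes the WT arrays split into the same upper and lower pair each time. Averaged over the 11 replication genes, the IIKO arrays read 9.76, 9.68, 9.67 and 9.66, and WT arrays 1 to 4 read 9.88, 9.84, 9.60 and 9.54. All 4 IIKO arrays thus lay between the upper and the lower pair of WT arrays. Averaged over the 20 mitosis genes, the IIKO arrays read 9.32, 9.24, 9.16 and 9.21, and the WT arrays 9.45, 9.31, 9.23 and 9.13. WT array 1 was the highest WT array for 27 of the 43 genes and WT array 4 the lowest for 25. WT arrays 1 and 2 both lay above WT arrays 3 and 4 for all 11 replication genes (for Pcna by less than the printed digits show) and for 13 of the 20 mitosis genes, an order found in 20.1% of all genes and 24.2% of the 9968 brighter genes. The order held for 4 of the 8 G1 genes and 3 of the 4 transcription factors. On the means of the replication, mitosis and G1 genes the IIKO arrays had this order too, over a narrower range for replication and mitosis. They did not have it on the mean of the transcription factors. In IIKO chimeras the order was not counted gene by gene.

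**Figure D3:**
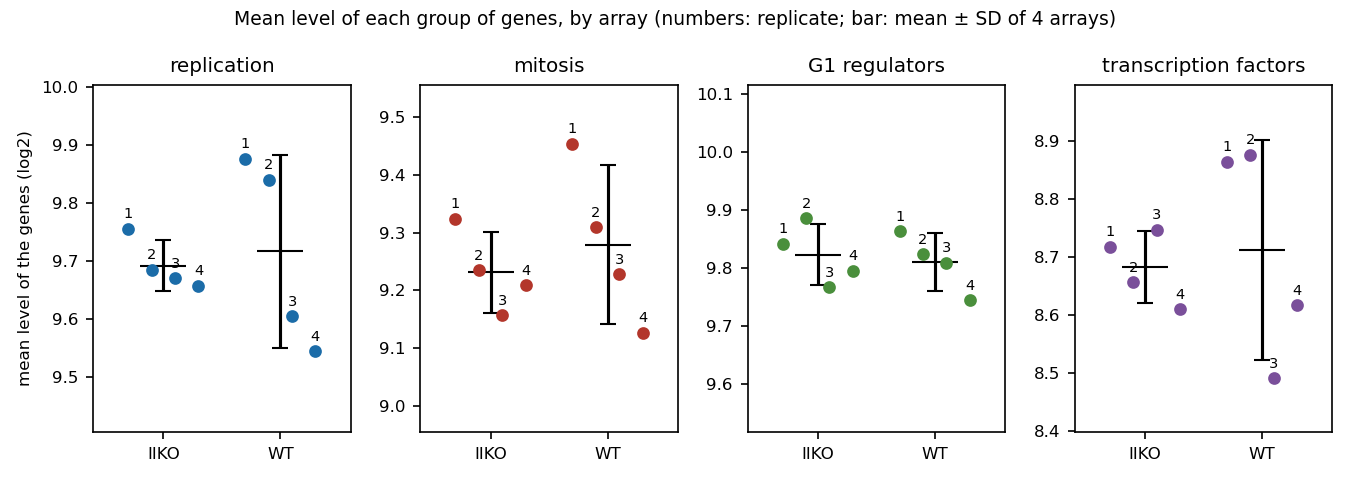
Mean log2 level (vertical axis, each panel spanning the same range) over the genes of each role on each array, IIKO chimeras left and WT chimeras right; numbers are replicates and bars the mean ± SD of 4 arrays. In the replication panel the IIKO arrays lie between 9.66 and 9.76, inside the WT range of 9.54 to 9.88.

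Other cell types did not follow that order in their marker lists. In none of the 5 lists for other cells were WT arrays 1 and 2 both above WT arrays 3 and 4 on the list mean. The NK and CD8 list read 6.58, 6.63, 6.64 and 6.36 on WT arrays 1 to 4, lowest on array 4 as the replication genes were. The erythroid list, of 6 measured genes out of 10, ran the other way, at 7.17, 7.28, 7.34 and 7.34. Of single markers, 0 of 12 T cell and Treg genes, 1 of 11 B cell, 0 of 14 myeloid, 1 of 10 NK and CD8, 0 of 6 erythroid and 1 of 9 thymocyte genes had the order. The part of cell composition in the spread was not tested. The SD was larger in WT chimeras for 6 of 11 B cell, 4 of 14 myeloid and 5 of 10 NK and CD8 markers. It was so for 2 of 6 erythroid, 0 of 9 thymocyte and 5 of 12 T cell and Treg markers. The mean over the brighter genes lay between 8.77 and 8.81 on the IIKO arrays, and it was likewise highest on WT array 1 (8.80) and lowest on WT array 4 (8.75) among the WT arrays.

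**Figure D4:**
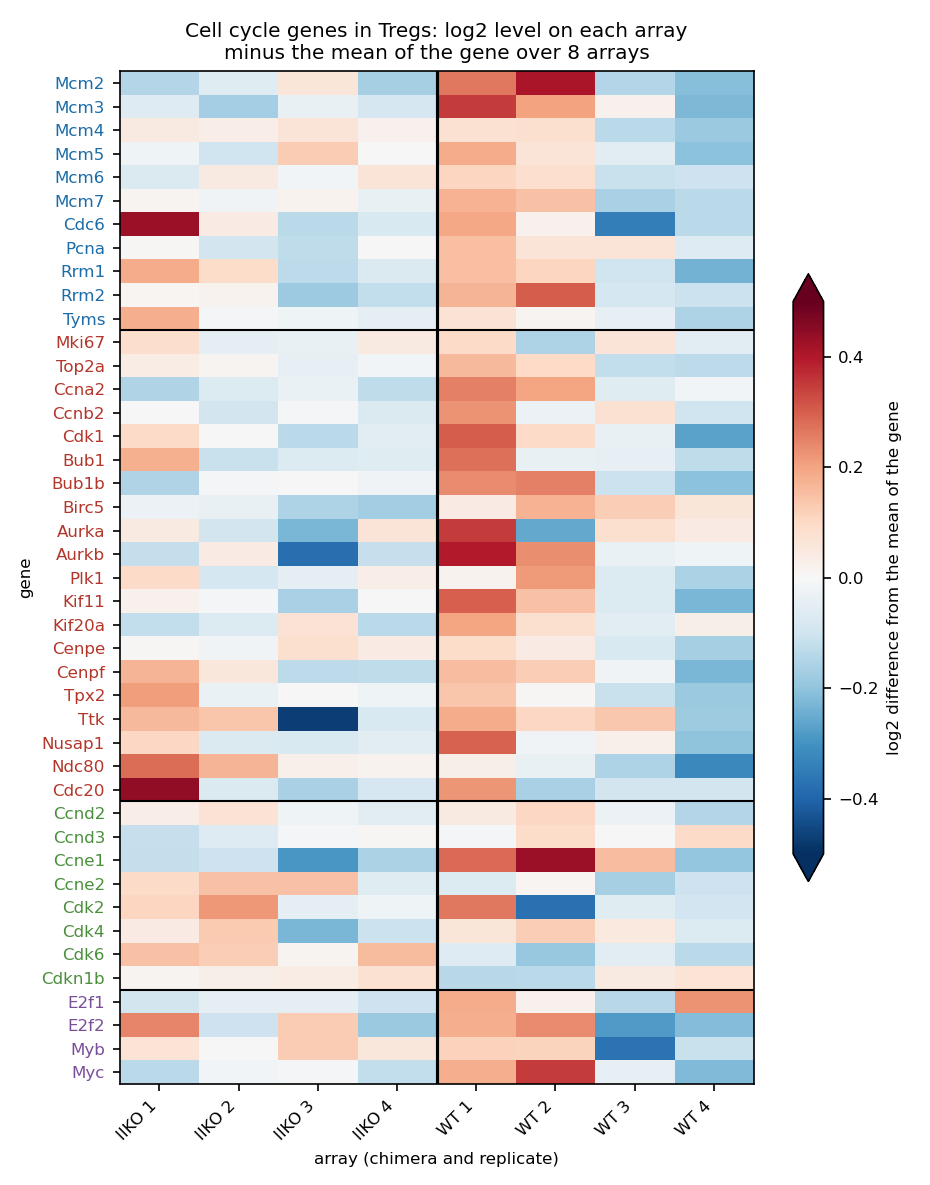
Log2 level of each of 43 cell cycle genes (rows) on each of 8 arrays (columns, IIKO left, WT right), shown as the difference from the mean of that gene over the 8 arrays; colours saturate at 0.5 in either direction and gene names are coloured by role. WT arrays 1 and 2 are red for most replication genes and WT arrays 3 and 4 blue, while the IIKO columns are mostly paler, their deepest cells being Cdc6 and Cdc20 on array 1 (red) and Ttk on array 3 (blue).

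Among the replication genes, the 6 subunits of the MCM2-7 helicase, which unwinds DNA at the fork, came first. Mcm2 read 8.90, 8.98, 9.10 and 8.87 in IIKO chimeras and 9.30, 9.45, 8.90 and 8.83 in WT chimeras. Its WT arrays bracketed the IIKO arrays on both sides. The difference was -0.16 ± 0.13 (log2, SE; limma adjusted p = 0.548). Mcm3 behaved alike, with 9.18, 9.07, 9.21 and 9.16 in IIKO chimeras and 9.60, 9.45, 9.27 and 9.02 in WT chimeras (-0.18 ± 0.11, limma adjusted p = 0.409). Mcm4 was the tightest in IIKO chimeras, at 9.79, 9.78, 9.81 and 9.77, against 9.82, 9.82, 9.61 and 9.56 in WT chimeras. Its SD was 0.018 in IIKO and 0.139 in WT chimeras. Mcm5, Mcm6 and Mcm7 had group means within 0.02 of each other.

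Pcna, the sliding clamp that holds polymerases on DNA, read 12.60, 12.51, 12.47 and 12.60 in IIKO chimeras and 12.75, 12.66, 12.66 and 12.53 in WT chimeras. The IIKO arrays sat low but overlapped the lowest WT array (-0.11 ± 0.06, limma adjusted p = 0.395). A dimmer probe set of Pcna gave a difference of -0.021, and pseudogenes of Pcna are listed in the mouse reference table, so signal shared with them was not separated. Rrm2, the regulated subunit of the ribonucleotide reductase that makes deoxynucleotides, was at 10.00 ± 0.10 in IIKO and 10.14 ± 0.20 in WT chimeras (SD, n = 4 arrays each; limma adjusted p = 0.469). Its partner Rrm1 and Tyms, the thymidylate synthase, differed by 0.04 and 0.05. Cdc6, which loads the helicase on origins, stood out on a single array, with 8.59 on IIKO array 1 against 8.03 to 8.20 on the other IIKO arrays and 7.82 to 8.36 in WT chimeras. Over the 11 genes, 0 passed limma at an adjusted p of 0.05, against 0.286% of all genes, and 0 at an unadjusted p of 0.05, against 17.3%; the median difference was 0.005, between -0.059 and 0.049 with any 1 array left out.

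Among the mitosis genes, 15 of 20 measured differences were negative, as were 62.9% of all genes and 46.3% of the brighter ones. Their median was -0.047, and it was 0.003 with arrays centred on their medians and 0.023 without WT array 1. At an unadjusted p under 0.05, 3 were lower, against 12.0% of all genes, and 1 was higher, against 5.27%. All 20 lay among the brighter genes, of which 7.42% were lower and 8.95% higher. Birc5, which encodes survivin of the chromosomal passenger complex, had the smallest p of them. It read 10.35, 10.34, 10.22 and 10.20 in IIKO chimeras and 10.41, 10.55, 10.50 and 10.43 in WT chimeras. Each IIKO array lay below each WT array, by a mean of 0.20 ± 0.06 (SE), or 1.15-fold (limma unadjusted p = 0.00736, adjusted p = 0.178).

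Aurkb, the kinase of the same complex, was at 8.74, 8.90, 8.48 and 8.74 in IIKO chimeras and 9.25, 9.09, 8.82 and 8.83 in WT chimeras. A single IIKO array reached into the WT range, and the difference was -0.29 ± 0.11 (SE; limma adjusted p = 0.245). Ccna2, the cyclin A of S and G2 phase, differed by -0.19 ± 0.08 (limma adjusted p = 0.259), with IIKO arrays from 9.27 to 9.39 and WT arrays from 9.36 to 9.67. Cdk1, the kinase that cyclins A and B activate, had its IIKO arrays within the WT range, with 9.27, 9.18, 9.04 and 9.13 in IIKO chimeras and 9.48, 9.27, 9.14 and 8.91 in WT chimeras. Ccnb2, a cyclin B, was at 10.65 ± 0.05 in IIKO and 10.74 ± 0.14 in WT chimeras (SD, n = 4 arrays each; limma adjusted p = 0.544). Pseudogenes are also listed for Ccnb2, Tyms, Ccnd3 and Aurkb, and signal shared with them was not examined. Kif20a, a kinesin of the spindle midzone, differed by -0.13 ± 0.07 (limma adjusted p = 0.382).

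Ndc80, a subunit of the kinetochore complex that binds microtubules, went in the other direction. It read 10.13, 10.02, 9.88 and 9.87 in IIKO chimeras and 9.88, 9.82, 9.70 and 9.53 in WT chimeras. The 2 lowest IIKO arrays lay at the level of the highest WT array, and the difference was 0.24 ± 0.09 (SE; limma adjusted p = 0.222). Ndc80 lies on chromosome 17. Top2a, the topoisomerase that untangles sister chromatids, was at 11.13 ± 0.04 in IIKO and 11.13 ± 0.15 in WT chimeras (SD, n = 4 arrays each). Its 95% confidence interval was -0.17 to 0.16. The kinase Plk1 and the spindle assembly factor Tpx2 had means of 8.30 and 9.02 in IIKO and 8.30 and 8.95 in WT chimeras. For Ttk, the checkpoint kinase also called Mps1, 7.81 on IIKO array 3 lay below the other IIKO arrays (8.21 to 8.44) and the WT arrays (8.10 to 8.47). The remaining members (Aurka, Bub1, Bub1b, Cenpe, Cenpf, Kif11, Nusap1 and Cdc20), which act in spindle assembly, its checkpoint and kinetochores, had limma adjusted p between 0.658 and 0.947. Kif11, the kinesin that pushes spindle poles apart, read 9.97, 9.94, 9.79 and 9.95 in IIKO chimeras and 10.25, 10.10, 9.88 and 9.72 in WT chimeras. Bub1b, the checkpoint protein BubR1, read 9.004, 9.14, 9.16 and 9.13 in IIKO chimeras and 9.39, 9.41, 9.04 and 8.95 in WT chimeras. In both genes the WT arrays spread more widely than the IIKO arrays, with SDs of 0.0841 in IIKO and 0.232 in WT chimeras for Kif11.

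The exceptions to the wider WT spread among mitosis genes were Birc5, Ttk and Cdc20. Ttk had an SD of 0.293 in IIKO and 0.164 in WT chimeras. Cdc20, which activates the anaphase-promoting complex, had an SD of 0.277 in IIKO and 0.171 in WT chimeras, and a single IIKO array, array 1, stood above the other IIKO arrays. Birc5 was alone among the 3 in having an unadjusted p under 0.05.

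The cyclins and kinases that act at the entry into the cycle varied in their direction. Cdk6, a kinase partner of D-type cyclins, had the smallest p of all 43 genes. It read 10.64, 10.62, 10.51 and 10.65 in IIKO chimeras and 10.43, 10.31, 10.44 and 10.36 in WT chimeras. Each IIKO array lay above each WT array, by a mean of 0.22 ± 0.06 (SE), or 1.17-fold (limma unadjusted p = 0.00337, adjusted p = 0.161). All 4 IIKO arrays lay above the WT arrays in 2.83% of all genes, and in 493 of the 9968 brighter genes, to which Cdk6 belongs. Cdk4, the related kinase, differed by -0.08, with IIKO arrays from 10.21 to 10.57 around WT arrays from 10.37 to 10.56. Cdk2, the partner of the E-type cyclins, read 8.65, 8.77, 8.50 and 8.53 in IIKO chimeras and 8.81, 8.18, 8.49 and 8.45 in WT chimeras. Its lowest value was on WT array 2, which was high for the replication genes.

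The E-type cyclins, which activate Cdk2 at the start of S phase, had opposite signs. Ccne1 read 8.64, 8.66, 8.47 and 8.60 in IIKO chimeras and 9.05, 9.19, 8.92 and 8.57 in WT chimeras. WT arrays 1 to 3 stood above every IIKO array, and WT array 4 lay among them (-0.34 ± 0.12, SE; limma adjusted p = 0.213). Ccne2 read 8.51, 8.55, 8.56 and 8.35 in IIKO chimeras and 8.34, 8.42, 8.24 and 8.31 in WT chimeras. The lowest IIKO array overlapped the WT arrays (0.16 ± 0.07, limma adjusted p = 0.250). Ccne1 lies on chromosome 7 and Ccne2 on chromosome 4. Of the members with an unadjusted p under 0.05, Ccne1 and Ndc80 lie on chromosomes 7 and 17, and the other 5 lie elsewhere.

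Ccnd2, the D-type cyclin of lymphocytes that responds to cytokines, was at 11.78 ± 0.06 in IIKO and 11.77 ± 0.11 in WT chimeras (SD, n = 4 arrays each). Ccnd3, another D-type cyclin, differed by -0.09 ± 0.055 (SE; limma adjusted p = 0.404). Cdkn1b, which encodes the inhibitor p27 that holds resting T cells out of the cycle, had 2 probe sets that differed in size. The brighter gave 11.32, 11.34, 11.35 and 11.38 in IIKO chimeras and 11.17, 11.17, 11.36 and 11.38 in WT chimeras, a difference of 0.08. The dimmer gave a difference of 0.24, with IIKO arrays from 10.29 to 10.54 and WT arrays from 10.07 to 10.32. Over the 8 G1 genes the spread differed little, with a median SD of 0.076 in IIKO and 0.094 in WT chimeras and the larger SD in WT chimeras for 5 of 8. On the brighter probe set of Cdkn1b WT arrays 1 and 2 were low, the reverse of the replication genes.

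The 4 transcription factors had a median SD of 0.060 in IIKO and 0.239 in WT chimeras. Myc, which drives growth on entry into the cycle, read 9.99, 10.11, 10.12 and 10.00 in IIKO chimeras and 10.31, 10.47, 10.09 and 9.91 in WT chimeras (-0.14 ± 0.11, SE; limma adjusted p = 0.528). The IIKO arrays lay within the WT range. Myb read 9.76, 9.69, 9.81 and 9.75 in IIKO chimeras and 9.81, 9.80, 9.32 and 9.58 in WT chimeras (0.13 ± 0.10, limma adjusted p = 0.530). E2f1, an activator of replication genes, was at 6.93 ± 0.03 in IIKO and 7.07 ± 0.17 in WT chimeras, near the median level of all genes (SD, n = 4 arrays each; limma adjusted p = 0.360). E2f2, a related factor, was at 7.99 ± 0.20 in IIKO and 7.95 ± 0.27 in WT chimeras.

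The promoters of replication and mitosis genes, which differ in when they are read, were compared by their letters. RefSeq promoter windows (GRCm38.p6, 250 bases before to 50 after the start site) were matched by symbol for 35 of the 45 genes, 3 of them with more than 1 window. E2F sites were searched as TTTGGCGC, TTTCGCGC, TTTCCCGC or TTTGCCGC, the CHR as TTTGAA or TTCGAA, and the NF-Y box as CCAAT, each on both strands and with overlapping matches allowed. E2F letters were found for 5 of 10 replication genes and 1 of 16 mitosis genes, against 3.48% of 15613 tested genes with a window. CHR letters were found for 2 of 10 replication genes and 13 of 16 mitosis genes, against 19.0%. CHR and NF-Y letters stood together for 12 of 16 mitosis genes, against 7.69%. These are matches of letters in a short window and not measured binding.

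The windows below show the pattern for a pair of helicase subunits, a cyclin and a spindle motor, and for Cdk1, which holds both kinds of match; capitals mark E2F letters in Mcm3 and Mcm6, CHR letters in Ccnb2 and Kif11, and both in Cdk1.
Mcm3 (GRCm38.p6 chr1:20820263-20820562, minus strand): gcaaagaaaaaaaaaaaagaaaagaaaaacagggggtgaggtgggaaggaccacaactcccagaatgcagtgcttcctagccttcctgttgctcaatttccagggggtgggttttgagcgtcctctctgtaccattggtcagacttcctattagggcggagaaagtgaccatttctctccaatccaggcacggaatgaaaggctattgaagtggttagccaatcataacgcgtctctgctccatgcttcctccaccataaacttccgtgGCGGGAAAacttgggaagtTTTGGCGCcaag
Mcm6 (GRCm38.p6 chr1:128359656-128359955, minus strand): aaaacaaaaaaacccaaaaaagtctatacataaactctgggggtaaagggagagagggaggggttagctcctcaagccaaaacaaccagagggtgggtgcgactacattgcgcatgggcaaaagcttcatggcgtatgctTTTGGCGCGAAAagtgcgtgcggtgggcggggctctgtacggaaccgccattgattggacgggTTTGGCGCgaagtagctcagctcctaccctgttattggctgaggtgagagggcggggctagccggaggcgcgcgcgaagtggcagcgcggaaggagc
Ccnb2 (GRCm38.p6 chr9:70421505-70421804, minus strand): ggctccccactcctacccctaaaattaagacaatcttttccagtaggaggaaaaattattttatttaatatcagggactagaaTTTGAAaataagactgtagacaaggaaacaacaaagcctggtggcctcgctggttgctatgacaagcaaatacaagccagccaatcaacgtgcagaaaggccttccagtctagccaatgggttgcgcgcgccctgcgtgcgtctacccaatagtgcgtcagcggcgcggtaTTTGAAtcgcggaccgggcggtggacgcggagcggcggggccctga
Kif11 (GRCm38.p6 chr19:37376132-37376431, plus strand): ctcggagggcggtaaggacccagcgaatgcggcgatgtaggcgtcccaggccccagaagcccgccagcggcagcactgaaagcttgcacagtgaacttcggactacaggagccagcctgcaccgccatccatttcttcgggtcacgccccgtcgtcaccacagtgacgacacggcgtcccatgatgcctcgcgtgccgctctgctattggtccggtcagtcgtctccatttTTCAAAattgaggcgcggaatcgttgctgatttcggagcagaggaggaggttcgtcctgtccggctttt
Cdk1 (GRCm38.p6 chr10:69352863-69353162, minus strand): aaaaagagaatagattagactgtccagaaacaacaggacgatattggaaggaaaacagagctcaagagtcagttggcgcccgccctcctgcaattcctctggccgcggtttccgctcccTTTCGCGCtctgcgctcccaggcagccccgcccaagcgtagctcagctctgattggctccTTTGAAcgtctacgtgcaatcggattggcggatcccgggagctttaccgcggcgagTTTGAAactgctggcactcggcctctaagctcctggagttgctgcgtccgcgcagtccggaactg
In Mcm3 both E2F matches lie within the 50 bases after the start site. In Mcm6 both stretches of capitals lie before it: the farther holds overlapping matches on opposite strands, and the nearer is a single match 47 bases before it. In Ccnb2, Kif11 and Cdk1 a CHR match lies within 19 bases of the start site.

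**Figure D5:**
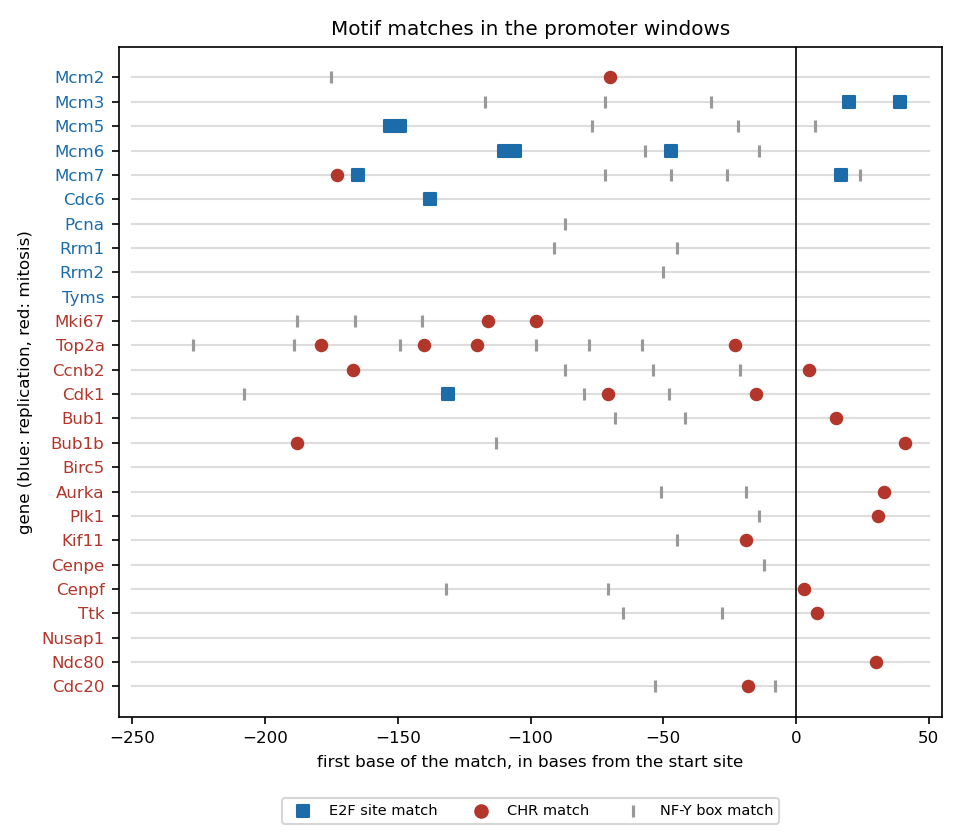
Position of the first base of each match, in bases from the start site (horizontal axis), in the RefSeq promoter windows of 10 replication genes (blue names) and 16 mitosis genes (red names); squares are E2F, circles CHR and ticks NF-Y matches. E2F matches lie mainly in the replication rows (5 of 10 genes) and CHR matches mainly in the mitosis rows (13 of 16 genes).

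A wider set of cell cycle genes, none of them among the 45, also held no gene past the adjusted threshold. Of 51 further replication, 69 further mitosis and 48 further regulator genes measured, 0 passed limma's test, and 19 had an unadjusted p under 0.05 (8 higher and 11 lower in IIKO chimeras, 11.3% of the 168, against 17.3% of all genes). The direction turned with the processing. After median centring 25 of the 168 had such a p, 19 higher and 6 lower, against 14.9% of all genes. That centring moved the median difference of all genes from -0.038 to 0.0125. Without WT array 4, 37 of the 168 had such a p, 10 higher and 27 lower, against 14.6% of all genes. In the fit as reported, on all 8 arrays, the share was 22.9% of the regulators, 7.84% of the replication genes and 5.8% of the mitosis genes. The SD was larger in WT chimeras for 43 of the 51 replication and 51 of the 69 mitosis genes. For the regulators it was 26 of 48, or 54.2%, near the 49.8% of all genes. WT arrays 1 and 2 both lay above WT arrays 3 and 4 for 32 of the 51, 37 of the 69 and 12 of the 48, the last at 25%. E2F letters were found for 14 of 40 further replication genes with a window, and CHR letters for 40 of 59 further mitosis genes.

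Nearest to the threshold was Cenpn, which binds the centromeric nucleosome. It read 7.62, 7.61, 7.74 and 7.59 in IIKO chimeras and 8.13, 8.19, 8.41 and 7.92 in WT chimeras. Each IIKO array lay below each WT array, by a mean of 0.52 ± 0.09 (SE), or 1.44-fold (limma adjusted p = 0.061, and 0.0222 without WT array 4). Cenpa, the histone H3 variant of that nucleosome, differed by -0.25 ± 0.07 (limma adjusted p = 0.178) and Cdc25c, a phosphatase that activates Cdk1, by -0.24 ± 0.09. Of the replication set, Orc2, an origin recognition subunit, differed by 0.27 ± 0.07, Rfc3, a clamp loader subunit, by 0.36 ± 0.10 and Gins3, a helicase subunit, by 0.25 ± 0.08 (limma adjusted p between 0.156 and 0.183). Orc2, Rfc3 and Gins3 were the 3 of 51 without overlap between IIKO and WT arrays, with IIKO above. So were 2.83% of all genes and 493 of the 9968 brighter genes, among which all 51 lay. Of the regulators, Tfdp2, a partner of E2F, differed by 0.25 ± 0.06, Pkmyt1, a kinase that inhibits Cdk1, by -0.25 ± 0.06 and Mycn by -0.22 ± 0.07 (limma adjusted p between 0.157 and 0.195).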

How the data were processed

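Tregs were profiled in 4 samples of IIKO chimeras and 4 of WT chimeras, on 1 Affymetrix array each, and samples were grouped by their titles. The submitters' processing notes name RMA and affy, without versions or settings, for the deposited log2 values, 1 per probe set. Values ran from 2.54 to 13.72. RMA draws arrays to common quantiles, so a change shared by most genes would be removed. Platform annotation gave 1 symbol to 21640 of 34760 probe sets, and the brightest probe set per symbol was kept, with no filter on dim genes. The difference of IIKO minus WT was fitted with limma 3.58.1 (R 4.3.3, all 8 arrays, two-sided) and Benjamini-Hochberg adjustment over 19937 genes; the fit was tested on simulated arrays. The labels call the samples biological replicates, and p-values measure the spread between them. The number of arrays limits the precision.

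The members, wider lists and marker lists were chosen with earlier results of these data known. Differences were given for the 4 replication, 6 mitosis and 4 G1 genes with the smallest p, the 4 transcription factors, Mki67, Top2a, Cdk1 and Pcna, and the 3 of each wider list with the smallest p; other members named by a value were chosen after it was seen. Alternatives were an adjusted p of 0.01, the replicate number as a block, further quantile normalization, median centring, brighter genes alone, eBayes with an intensity trend and robust variance, limma's array weights, averaging the probe sets of a gene, leaving out each array, and leaving out chromosomes 7 and 17. The spread between arrays was examined after the data were seen. Over all genes, same-numbered arrays correlated at -0.068 to 0.220 in their deviations from the group means. Differently numbered arrays were not compared, so whether the numbers pair the arrays was not settled. Array 1 had the highest mean of the replication and of the mitosis genes in both groups. Promoter windows are from RefSeq. Figures used Python 3.11.15 and matplotlib 3.10.9.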

Additional observations from a re-analysis of the deposited data

Results flagged for a closer look

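In 4 of 86 groups of 4 arrays (43 genes in 2 groups), 1 array lay far from the other 3 relative to the range of the group; chance gives about 1 in 20 such groups. All 4 were mitosis genes on IIKO array 1. It was high for Cdc20, the activator of the anaphase-promoting complex, at 8.85 against 8.25 to 8.34 on the other IIKO arrays. It was also high for Tpx2, at 9.19 against 8.95 to 8.99, and for Nusap1, a spindle protein, at 9.06 against 8.88 to 8.90. It was low for Bub1b, the checkpoint protein BubR1, at 9.004 against 9.13 to 9.16. IIKO array 1 was the highest IIKO array for 14 of the 20 mitosis genes. The cause was not tested.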

How the results depend on the processing

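No cell cycle gene of the 43 passed in any of the alternatives run, the replicate block (0 of 43) included. Their number at an unadjusted p under 0.05 lay between 4 and 8, where 11.7% to 20.3% of all genes tested were called. Of the 168 wider genes, 0 passed in the fit as reported and with the replicate block, and 1, Cenpn, passed among the brighter genes alone; with 1 array left out the count lay between 0 and 1. Whether the numbers of the titles pair the arrays was not settled, and the block brought the count over all genes from 57 to 31. The median of the G1 genes was 0.11 without chromosomes 7 and 17, which removes Ccne1 and Ccnd3 from it. Leaving out 1 array moved the replication median between -0.059 and 0.049 and the mitosis median between -0.12 and 0.023. Signs were followed gene by gene only for the genes whose differences were given by the rule above. Other members changed sign too, as 18 of the 43 were positive as reported and 25 with median centring. Among the genes followed, the differences that changed sign were those of E2f2 (-0.0469 to 0.13 with 1 array left out), Mki67 (-0.0236 to 0.0601, and -0.0054 after quantile normalization), Top2a (-0.0472 to 0.0505, 0.0478 with median centring and 0.0024 with the mean of probe sets) and Cdk1 (-0.14 to 0.0478, and 0.0045 with median centring). None of these was past the threshold in any alternative run, and the cause was not tested. Unadjusted calls among the 43 were 3 higher and 4 lower as reported, where 17.3% of all genes were called. They were 3 and 2 with median centring (14.9% of all genes) and 2 and 5 after quantile normalization (11.7%). Without WT array 4 they were 1 and 7 (14.6%), and without IIKO array 1 they were 1 and 3 (12.7%).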
